A study of Homo sapiens with 16 samples.

Results

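The interleukin-1 family of cytokines and its receptors were followed through 8 groups of HMLER cells, an established line of human mammary epithelial cells immortalized and transformed by introduced genes. The 8 genes described here were taken by name from the 60448 genes of the count tables: the ligands IL1A, IL1B, IL18, IL33 and IL36G, the receptor antagonist IL1RN, the receptor IL1R1 and its accessory chain IL1RAP. Each name matched 1 Ensembl gene, and 7 of the 8 genes passed a filter on low counts (IL36G did not). RNA was sequenced in 16 libraries, 2 for each group. No label says that the 2 libraries of a group came from separate cultures, so p-values measure the spread between libraries, which may be technical.

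All 8 groups are HMLER cells grown in the same mixture of mammary epithelial, DMEM and F12 media with insulin, EGF and hydrocortisone. Among the groups labelled wild type, the series calls the epithelial cells of C1 stable and those of C2-Epi plastic, and it gives C2-Mes as mesenchymal. C1-sgControl, also labelled wild type, is C1 with a control guide. C1-sgEED-Epi and C1-sgEED-Mes are labelled EED-KO, and EED is a core subunit of the Polycomb repressive complex that methylates histones at silent genes. C1-sgKMT2D-Epi and C1-sgKMT2D-Mes are labelled KMT2D-KO, and KMT2D is a histone methyltransferase that acts at enhancers. For each knockout the series describes the Epi group as plastic epithelial and the Mes group as mesenchymal. The labels do not say whether a group is 1 clone or a pool, how the mesenchymal cells arose, or which libraries came from sorted and which from cultured cells.

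Interleukin-1 alpha and beta, the products of IL1A and IL1B, bind the receptor IL1R1, which then recruits IL1RAP to start signalling through MYD88 and the IRAK kinases to NF-kB. IL1RN encodes a ligand that occupies IL1R1 without recruiting the accessory chain, so it blocks both cytokines. IL1B and IL18 are made as precursors that inflammasome caspases cleave, whereas IL1A and IL33 are active without that cleavage and are stored in epithelial cells as alarm signals released on damage. IL36G is an epithelial cytokine with its own receptor, which shares IL1RAP. Keratinocytes and other stratified epithelia are known for making IL1A, IL18, IL33 and IL1RN, and fibroblasts for responding through IL1R1.

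On GRCh38 with the GENCODE 29 annotation, 5 of the 8 genes lie on chromosome 2. IL1A (112773915 to 112784590, minus strand), IL1B (112829751 to 112836903, minus strand), IL36G (112973203 to 112985665, plus strand) and IL1RN (113107214 to 113134016, plus strand) neighbour each other there, and IL1R1 lies at 102064544 to 102179874 on the plus strand. IL1RAP is on chromosome 3 (190514051 to 190659750, plus strand), IL18 on chromosome 11 (112143251 to 112164117, minus strand) and IL33 on chromosome 9 (6215786 to 6257983, plus strand). Exons of IL1R1 share 11 bases with the antisense gene IL1R1-AS1 and those of IL1RAP share 535 bases with AC108747.1, and neither of these overlapping genes held a count in any library.

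Promoter sequence is shown for 5 members that include IL1A and IL1RN, which fell, and IL1R1, which rose, from epithelial to mesenchymal cells. RefSeq (GRCh38.p14) gave 14 windows of 250 bases upstream of start sites for 7 of the 8 members (IL18 had none), and all 14 were searched on both strands. The AP-1 motif TGANTCA, where N is any base, occurred in windows of IL1A and IL1RN. The 27-base stretches below hold it in capitals, on the strand of the gene. The first and second lie 105 and 55 bases upstream of an IL1A start site, within an exon of another transcript in GENCODE 29, and the third lies 223 bases upstream of an IL1RN start site, outside exons.
IL1A, chr2:112784489-112784515, minus strand: cgaagaagacTGACTCAggcttaagct
IL1A, chr2:112784439-112784465, minus strand: cattggcgttTGAGTCAgcaaaggtat
IL1RN, chr2:113117738-113117764, plus strand: tctgctagccTGAGTCAccctcctgga
The motif is present in 6.57% of all 35116 windows of that length in the table, so a match describes the letters only. An NF-kB site was found in none of the 14 windows (9.96% of all windows held one), and the E-box CACCTG was found in the IL36G window alone (17.5% of all windows).

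The windows of the members also differed in how many CG dinucleotides they held, shown here in capitals for the part of each window outside annotated exons. The 126 bases of the IL1B window hold no CG, the 250 bases of 1 of the 4 IL1R1 windows hold 31, and the 216 bases of the IL1RAP window hold 31.
IL1B, chr2:112836904-112837029, minus strand: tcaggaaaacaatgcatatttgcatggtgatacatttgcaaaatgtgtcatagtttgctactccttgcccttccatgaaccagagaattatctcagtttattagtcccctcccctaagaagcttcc
IL1R1, chr2:102142496-102142745, plus strand: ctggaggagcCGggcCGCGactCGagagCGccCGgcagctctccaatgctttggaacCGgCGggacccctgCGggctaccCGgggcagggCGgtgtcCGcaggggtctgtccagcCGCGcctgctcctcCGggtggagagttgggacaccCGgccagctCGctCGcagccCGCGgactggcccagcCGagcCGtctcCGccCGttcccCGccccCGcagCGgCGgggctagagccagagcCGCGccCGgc
IL1RAP, chr3:190513835-190514050, plus strand: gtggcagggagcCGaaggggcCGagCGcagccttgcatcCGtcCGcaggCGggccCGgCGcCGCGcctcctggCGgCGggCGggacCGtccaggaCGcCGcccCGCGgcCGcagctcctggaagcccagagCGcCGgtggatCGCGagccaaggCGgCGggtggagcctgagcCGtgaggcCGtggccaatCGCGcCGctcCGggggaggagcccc
Over the full 250 bases, all 35116 windows had a median of 11 CG (quartiles 3 and 23). The windows of IL1A, IL1B, IL33, IL36G and IL1RN held 0 to 8, the other 3 windows of IL1R1 held 3, 6 and 6, and the IL1RAP window held 33.

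Libraries held 18872124 to 31950649 counted reads. Levels are given as CPM, counts scaled to 1000000 reads per library with trimmed mean of M-values (TMM) factors. Of 7 mammary epithelial markers, the summed level was 7879 to 19122 CPM in the epithelial libraries and 81.4 to 1810 CPM in the mesenchymal ones. Of 7 mesenchymal markers, the sum was 13232 to 24413 CPM against 45426 to 157076 CPM, so the sums, though not every marker, separated the labelled states. DSP did not fall in C1-sgEED, at 1124 and 908 CPM in C1-sgEED-Epi and 908 and 1089 in C1-sgEED-Mes. The other epithelial markers were lower in C1-sgEED-Mes than in C1-sgEED-Epi. THY1, a mesenchymal marker, was at 67.7 and 188 CPM in C2-Mes, below 202 and 234 in C1-sgEED-Epi but above 17.6 and 14.0 in C2-Epi. Summed over 10 leukocyte markers the level was 1.36 to 8.53 CPM, with TYROBP at 0 in every library, and over 7 endothelial markers it was 2.13 to 32.2 CPM. EED itself stood at 24.1 ± 3.52 CPM (SD, n = 2 throughout) in C1-sgControl, 28.1 ± 1.99 in C1-sgEED-Epi and 5.36 ± 0.197 in C1-sgEED-Mes. KMT2D stood at 80.4 ± 13.4, 126 ± 1.84 and 81.7 ± 6.92 CPM in C1-sgControl, C1-sgKMT2D-Epi and C1-sgKMT2D-Mes, and a count over the whole gene does not check an edit. The 2 libraries of C2-Mes stood apart from each other: the SD of their log2 difference over all genes was 0.890, against at most 0.493 in the other 7 groups. The table of the first of them is headed with a name that includes "re.prep", which no other table has, so results that rest on C2-Mes are given with and without it where they change.

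Going from epithelial to mesenchymal cells, the ligands IL1A and IL18 and the antagonist IL1RN fell and the receptor IL1R1 rose in each of the 3 lines compared (C2, C1-sgEED and C1-sgKMT2D). IL1A was at 38.0 to 172 CPM in the 10 epithelial libraries and at 0 to 8.59 CPM in the 6 mesenchymal ones, and IL1R1 was at 4.50 to 22.3 CPM against 67.0 to 152 CPM. IL1B fell in both knockout lines, and IL1RAP fell in C2 and did not pass in the knockout lines. In bulk RNA, fewer cells of a type and less RNA per cell cannot be told apart. Groups were compared with edgeR's quasi-likelihood test over all 18285 genes that passed the filter, and a gene was called where the Benjamini-Hochberg adjusted p was under 0.05. Of the 7 members tested, 1 rose and 4 fell in C2, where 39.6% of all genes were called. In C1-sgEED 1 rose and 4 fell (36.5% of all genes called), and in C1-sgKMT2D 1 rose and 4 fell (50.8%). By direction, 18.6%, 17.3% and 24.0% of all genes fell in the 3 lines, 19.2% and 26.8% rose in C1-sgEED and C1-sgKMT2D, and 3845 of the 18285 genes rose in C2, while the median change over all genes was 0.01, 0.01 and 0.02 on the log2 scale.

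**Figure D1:**
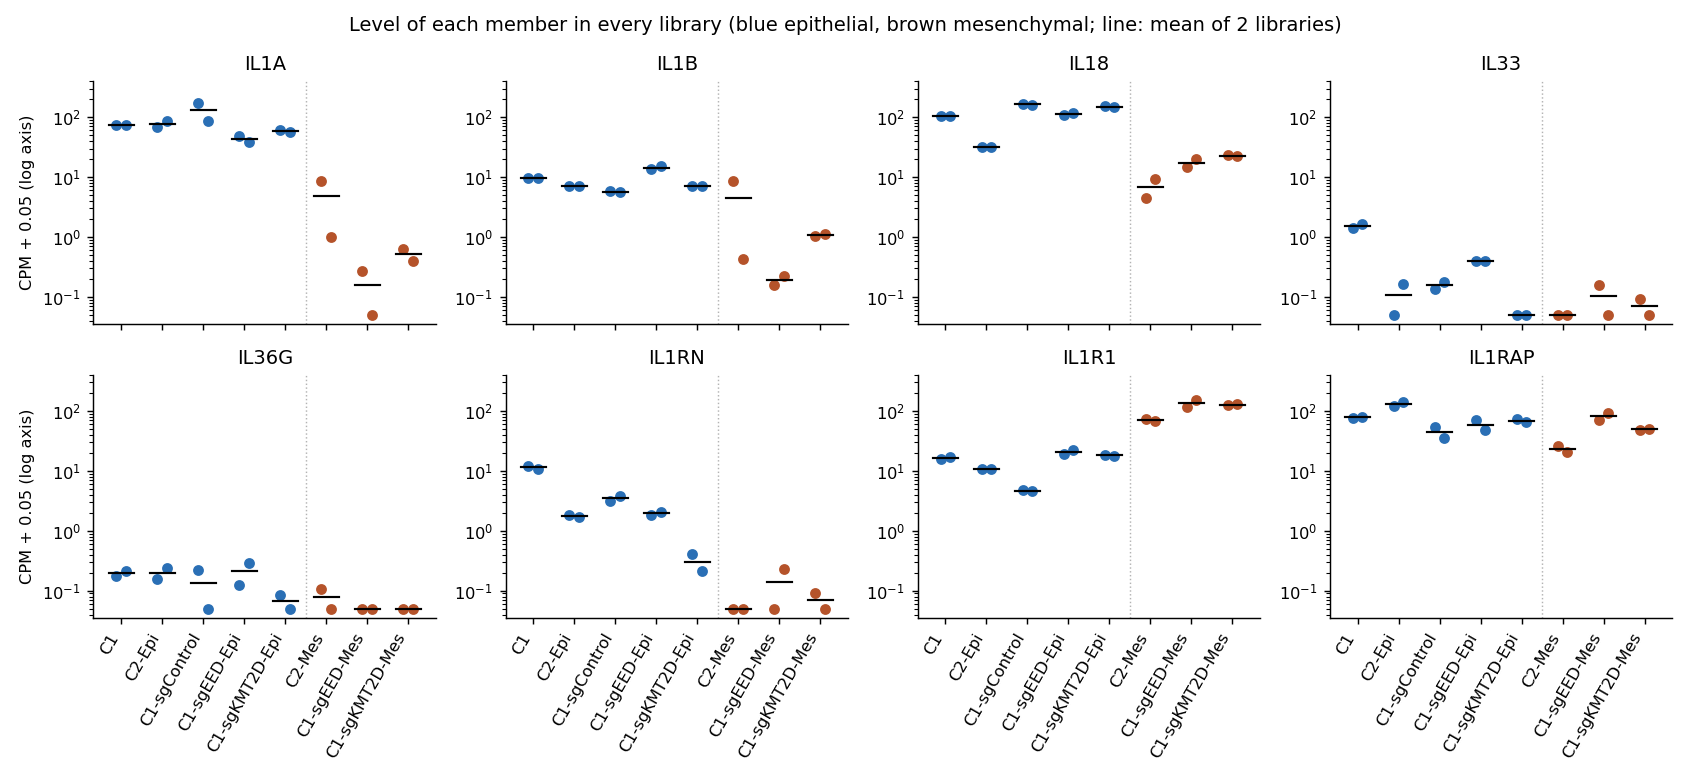
Level of each member in every library, as CPM + 0.05 on a log axis, with a short line at the mean of the 2 libraries of a group; blue points are epithelial and brown points mesenchymal. IL1A spans 38.0 to 172 CPM in epithelial libraries and 0 to 8.59 CPM in mesenchymal ones, IL1R1 shows the opposite order, and the 2 C2-Mes libraries lie far apart for IL1A and IL1B.

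IL1A, the alarm cytokine, had the highest mean level per length of the 8 members in C2-Epi (36.5 ± 5.55 CPM per kb, SD, n = 2) and the second highest, after IL18, in the other 4 epithelial groups. Its level in replicates 1 and 2 was 73.3 and 72.9 CPM in C1, 69.2 and 85.9 in C2-Epi, 172 and 86.8 in C1-sgControl, 47.6 and 38.0 in C1-sgEED-Epi and 60.8 and 56.8 in C1-sgKMT2D-Epi. In the mesenchymal groups it was 8.59 and 0.958 CPM in C2-Mes, 0.218 and 0 in C1-sgEED-Mes and 0.586 and 0.350 in C1-sgKMT2D-Mes. Every mesenchymal library lay below every epithelial library, and the first C2-Mes library lay above the other 5 mesenchymal ones. In order of mean level the groups ran C1-sgControl, C2-Epi, C1, C1-sgKMT2D-Epi, C1-sgEED-Epi, C2-Mes, C1-sgKMT2D-Mes and C1-sgEED-Mes, and of these neighbours only the libraries of C2-Epi and C1 overlapped. The change from epithelial to mesenchymal cells was -4.12 ± 0.66 (SE), adjusted p = 0.000208 in C2 on the log2 scale, with edgeR. It was -8.44 ± 0.98 (SE), adjusted p = 1.52e-05 in C1-sgEED and -6.95 ± 0.83 (SE), adjusted p = 1.28e-05 in C1-sgKMT2D. The C1-sgEED-Mes libraries held 6 and 0 counts of IL1A, so the size of the C1-sgEED change rests on few reads. Without the first C2-Mes library the change in C2 was -6.44 (adjusted p = 6.41e-06), and with only the 4 compared libraries in the fit it was -4.07 (adjusted p = 0.0547). The change in C1-sgEED minus that in C2 was -4.31 (adjusted p = 0.0321), a difference that lost its call without any 1 of 7 of the 8 libraries, all but the second C2-Mes library (adjusted p from 0.0547 to 0.193), and with only the compared libraries (0.0924). Among epithelial groups, IL1A did not pass the test between C2-Epi and C1 (0.09 ± 0.55 (SE), adjusted p = 0.935) or between C1-sgControl and C1 (0.83 ± 0.56 (SE), adjusted p = 0.300), where the 2 C1-sgControl libraries differed from each other by more than those of any other epithelial group. IL1A was lower in C1-sgEED-Epi than in C1-sgControl (-1.60 ± 0.57 (SE), adjusted p = 0.0323), but this call was lost without the first C1-sgControl library (adjusted p = 0.237), without either C1-sgEED-Epi library (0.0976 and 0.162), with DESeq2 (0.119), and with C1 in place of C1-sgControl (-0.77, adjusted p = 0.349).

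IL1B, whose precursor needs caspase cleavage, was lower than IL1A in every epithelial group per length of annotated exons: 3.06 ± 0.0123 against 34.4 ± 0.138 CPM per kb in C1. It was at 9.51 and 9.45 CPM in C1, 6.94 and 7.07 in C2-Epi, 5.71 and 5.53 in C1-sgControl, 13.6 and 15.0 in C1-sgEED-Epi and 7.20 and 6.93 in C1-sgKMT2D-Epi. In mesenchymal cells it was at 8.53 and 0.383 CPM in C2-Mes, 0.109 and 0.176 in C1-sgEED-Mes and 1.00 and 1.09 in C1-sgKMT2D-Mes. The first C2-Mes library lay within the epithelial range, and the other 5 mesenchymal libraries lay below all 10 epithelial ones. IL1B fell in C1-sgEED (-6.63 ± 1.06 (SE), adjusted p = 0.000239, edgeR, log2 scale). The C1-sgEED-Mes libraries held 3 and 4 counts of IL1B, so the size of that change rests on few reads. In C1-sgKMT2D the change was -2.75 ± 0.80 (SE), adjusted p = 0.0116, and the call was lost without either C1-sgKMT2D-Mes library (0.0742 and 0.0644). In C2 the change was -0.75 ± 0.71 (SE), adjusted p = 0.435, and without the first C2-Mes library it was -4.28 (adjusted p = 2.75e-09). The change in C1-sgEED minus that in C2 was -5.88 (adjusted p = 0.00611), and -2.39 (adjusted p = 0.00294) without that library. No comparison among the epithelial groups passed for IL1B; the largest of them was 1.35 ± 0.68 (SE), adjusted p = 0.115, C1-sgEED-Epi over C1-sgControl, which passed with no filter on low counts (adjusted p = 3.75e-07) and with only the compared libraries (0.000148).

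IL18, the other caspase-dependent cytokine, had the highest mean level per length of the members in C1, C1-sgControl, C1-sgEED-Epi and C1-sgKMT2D-Epi, at 39.6 ± 0.424 CPM per kb (SD, n = 2) in C1. In C1-sgControl, at 62.4 ± 1.38 CPM per kb, it did not differ from IL1A (61.0 ± 28.4) beyond the spread of the libraries. Its level in replicates 1 and 2 was 103 and 105 CPM in C1, 167 and 161 in C1-sgControl, 110.3 and 119 in C1-sgEED-Epi and 151 and 145 in C1-sgKMT2D-Epi, but 32.1 and 31.9 in C2-Epi. In mesenchymal cells it was at 4.38 and 9.27 CPM in C2-Mes, 14.5 and 20.4 in C1-sgEED-Mes and 23.6 and 22.1 in C1-sgKMT2D-Mes. All 6 mesenchymal libraries lay below all 10 epithelial ones, and IL18 stayed above 4 CPM in each of them. The order of group means was C1-sgControl, C1-sgKMT2D-Epi, C1-sgEED-Epi, C1, C2-Epi, C1-sgKMT2D-Mes, C1-sgEED-Mes and C2-Mes, with no overlap between neighbours. The change of state was -2.20 ± 0.25 (SE), adjusted p = 9.01e-06 in C2, -2.72 ± 0.25 (SE), adjusted p = 1.26e-06 in C1-sgEED and -2.69 ± 0.25 (SE), adjusted p = 9.44e-07 in C1-sgKMT2D (edgeR, log2 scale). These changes did not pass a test of their differences between lines, except that without the first C2-Mes library the change in C1-sgEED minus that in C2 was -0.86 (adjusted p = 0.00637) and that in C1-sgKMT2D minus C2 was -0.87 (adjusted p = 0.00573). C2-Epi was lower than C1 by 3.26-fold (-1.70 ± 0.24 (SE), adjusted p = 0.000166). C1-sgControl against C1 gave 0.66 ± 0.23 (SE), adjusted p = 0.0513, which passed with DESeq2 (adjusted p = 0.0411), with no filter on low counts (0.00701), with only the 4 compared libraries (0.000974) and with the replicate number as a block (0.0444). IL18 was higher in both knockout mesenchymal groups than in C2-Mes, by 1.32 (adjusted p = 0.000776) in C1-sgEED-Mes and by 1.71 (adjusted p = 0.000133) in C1-sgKMT2D-Mes. With only the 4 compared libraries these were 1.34 (adjusted p = 0.0552) and 1.71 (0.0576).

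IL33, the alarm cytokine that signals through IL1RL1, was detected above 1 CPM in C1 alone, at 1.36 and 1.60 CPM. It was at 0.343 and 0.351 CPM in C1-sgEED-Epi, 0.0839 and 0.129 in C1-sgControl and 0 and 0.115 in C2-Epi, and no count fell on it in C1-sgKMT2D-Epi or C2-Mes. C1 lay above all other libraries. In C2-Epi the level was 26.5-fold lower than in C1 (71 against 3 counts, 95% counting interval 8.70 to 131, edgeR adjusted p = 0.000990), and C1-sgControl was lower than C1 (-3.74 ± 0.71 (SE), adjusted p = 0.00280). In the change of state within C1-sgEED the level was 5.82-fold lower (19 against 3 counts, interval 1.71 to 30.7, adjusted p = 0.0560), which did not pass. The direction of the C1-sgEED-Epi difference depended on the control: 1.66 against C1-sgControl (adjusted p = 0.120) and -2.07 against C1 (adjusted p = 0.0195). IL36G was at 0 to 0.246 CPM in all 16 libraries, 30 counts in all, and was at 0 in C1-sgEED-Mes and C1-sgKMT2D-Mes, where up to 3 counts per library cannot be told from 0.

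IL1RN, the natural antagonist of IL1R1, had its highest level in C1. It was at 12.1 and 10.6 CPM in C1, 3.11 and 3.77 in C1-sgControl, 1.75 and 2.04 in C1-sgEED-Epi, 1.81 and 1.61 in C2-Epi and 0.354 and 0.159 in C1-sgKMT2D-Epi. In mesenchymal cells it was at 0 and 0 CPM in C2-Mes, 0 and 0.176 in C1-sgEED-Mes and 0.0418 and 0 in C1-sgKMT2D-Mes. C1 was above every other library, and the lower C1-sgKMT2D-Epi library lay within the mesenchymal range. C2-Mes was at least 12.6-fold lower than C2-Epi, against a floor of 3 counts per library (92 against 0 counts, edgeR adjusted p = 2.17e-05). In C1-sgEED the change was -4.48 ± 0.60 (SE), adjusted p = 7.08e-05. In C1-sgKMT2D it was 12.3-fold lower (14 against 1 counts, interval 1.87 to 519, adjusted p = 0.0209), a call lost without the first C1-sgKMT2D-Epi library (0.145) or the second C1-sgKMT2D-Mes library (0.117).

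Between epithelial groups, IL1RN was lower than in C1 in C2-Epi (-2.73 ± 0.36 (SE), adjusted p = 0.000127, log2 scale) and in C1-sgControl (-1.72 ± 0.34 (SE), adjusted p = 0.00282). C1-sgKMT2D-Epi was lower than C1-sgControl (-3.69 ± 0.47 (SE), adjusted p = 2.86e-05). C1-sgEED-Epi against C1-sgControl gave -0.86 ± 0.36 (SE), adjusted p = 0.0644, which passed with DESeq2 (adjusted p = 0.0324), with no filter (0.0405), with only the compared libraries (0.0170) and against C1 (-2.58, adjusted p = 0.000230). Per length of annotated exons, IL1RN made up 8.50 ± 0.655% (SD, n = 2) of the summed IL1A, IL1B and IL1RN level in C1. The share was 1.36 ± 0.298% in C2-Epi, 1.89 ± 1.06% in C1-sgControl, 2.32 ± 0.499% in C1-sgEED-Epi and 0.260 ± 0.129% in C1-sgKMT2D-Epi. C1 lay above the libraries of the other 4 epithelial groups and C1-sgKMT2D-Epi below them. With 2 libraries against 2 an exact permutation test cannot reach 0.05, so the shares carry no test, and no share is given for mesenchymal cells, where the 3 genes together held as few as 8 counts.

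IL1R1, the signalling receptor for both interleukin-1 cytokines, rose by nearly the same factor in the 3 lines. It was at 15.4 and 16.7 CPM in C1, 10.6 and 10.8 in C2-Epi, 4.78 and 4.50 in C1-sgControl, 18.9 and 22.3 in C1-sgEED-Epi and 18.5 and 17.5 in C1-sgKMT2D-Epi. In mesenchymal cells it was at 73.0 and 67.0 CPM in C2-Mes, 116 and 152 in C1-sgEED-Mes and 124 and 128 in C1-sgKMT2D-Mes. All mesenchymal libraries lay above all epithelial ones, and the 2 C2-Mes libraries differed by less than those of C1-sgEED-Mes. The increase was 6.52-fold in C2 (2.70 ± 0.16 (SE), adjusted p = 9.17e-09), 6.50-fold in C1-sgEED (2.70 ± 0.16 (SE), adjusted p = 1.20e-08) and 7.00-fold in C1-sgKMT2D (2.81 ± 0.16 (SE), adjusted p = 6.87e-09), with edgeR. The differences between lines were -0.0033 ± 0.20 (SE) for C1-sgEED minus C2, 0.10 ± 0.21 for C1-sgKMT2D minus C2 and 0.11 ± 0.21 for C1-sgKMT2D minus C1-sgEED on the log2 scale. None passed (adjusted p = 1.000, 0.790 and 0.785). Of the mesenchymal groups, the libraries of C1-sgEED-Mes and C1-sgKMT2D-Mes overlapped. Both were above C2-Mes, by 0.93 (adjusted p = 0.000168) and 0.85 (adjusted p = 0.000508).

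Among epithelial cells the order of IL1R1 was C1-sgEED-Epi, C1-sgKMT2D-Epi, C1, C2-Epi and, lowest, C1-sgControl, with no overlap between neighbours. C1-sgControl was 3.46-fold below C1 (-1.79 ± 0.16 (SE), adjusted p = 9.58e-06). Against C1-sgControl, IL1R1 was higher in C1-sgEED-Epi (2.15 ± 0.16 (SE), adjusted p = 4.32e-07) and in C1-sgKMT2D-Epi (1.96 ± 0.16 (SE), adjusted p = 6.28e-07). Both comparisons use the same C1-sgControl libraries, and against C1 in their place the differences were 0.35 (adjusted p = 0.105) and 0.16 (0.418). C2-Epi was lower than C1 (-0.58 ± 0.15 (SE), adjusted p = 0.0118), a call lost with no filter on low counts (0.0747) and without any 1 of the 4 libraries (0.0645 to 0.136).

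IL1RAP, the accessory chain shared with the IL33 and IL36 receptors, was the member whose change of state passed the test of a difference between each pair of lines. It was at 77.1 and 78.6 CPM in C1, 120.2 and 138 in C2-Epi, 54.1 and 35.2 in C1-sgControl, 69.2 and 48.7 in C1-sgEED-Epi and 72.4 and 65.4 in C1-sgKMT2D-Epi. In mesenchymal cells it was at 25.5 and 20.6 CPM in C2-Mes, 70.8 and 92.5 in C1-sgEED-Mes and 47.8 and 50.1 in C1-sgKMT2D-Mes. C2-Epi was the highest group and C2-Mes the lowest, neither overlapping its neighbour, and between them the libraries of epithelial and mesenchymal groups overlapped. IL1RAP fell 5.62-fold in C2 (-2.49 ± 0.23 (SE), adjusted p = 9.44e-07, edgeR). In C1-sgEED the change was 0.47 ± 0.22 (SE), adjusted p = 0.109 (adjusted p = 0.0486 without the first C1-sgEED-Epi library). In C1-sgKMT2D it was -0.49 ± 0.22 (SE), adjusted p = 0.0728 (0.0115 with no filter, 2.15e-05 with only the compared libraries). The change in C1-sgEED minus that in C2 was 2.96 (adjusted p = 1.18e-05), and that in C1-sgKMT2D minus C2 was 2.00 (adjusted p = 0.000360). These differences share the C2 libraries. C1-sgKMT2D minus C1-sgEED was -0.96 (adjusted p = 0.0401), a call lost without any of 6 of the 8 libraries (adjusted p from 0.0680 to 0.156), all but the first C1-sgEED-Epi and the first C1-sgEED-Mes library.

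**Figure D2:**
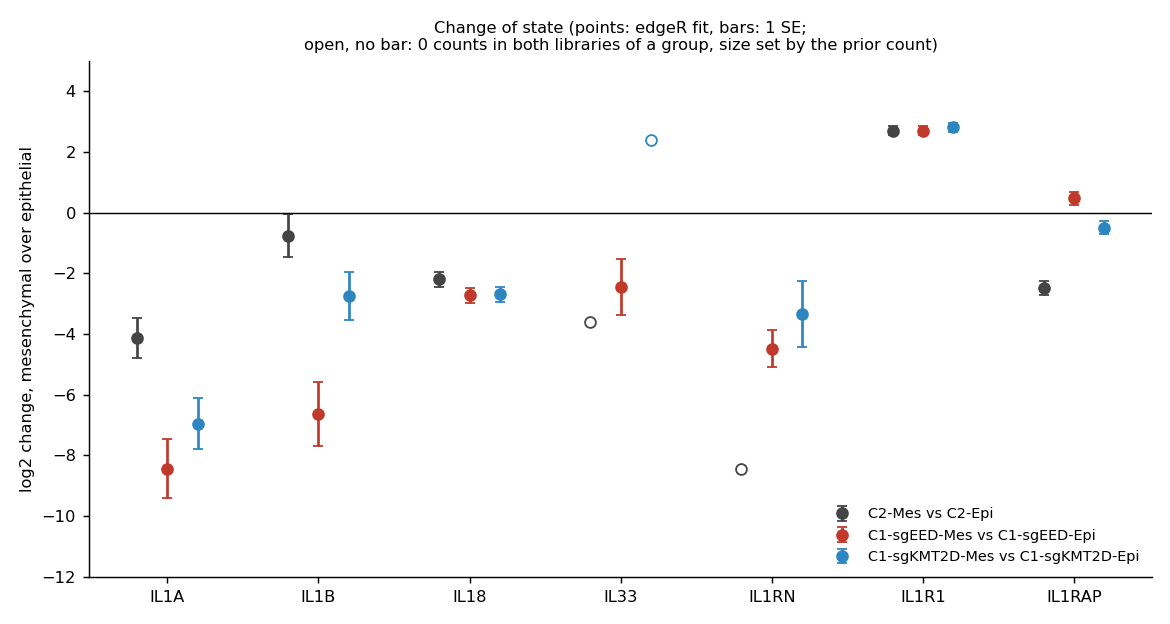
Fitted log2 change from epithelial to mesenchymal cells for the 7 members tested, with bars of 1 SE, in C2, C1-sgEED and C1-sgKMT2D; open points have a group with no count, so their size is set by the fit. IL1R1 lies at 2.70, 2.70 and 2.81, IL1A, IL1B and IL18 lie below 0 in each line, and IL1RAP lies at -2.49, 0.47 and -0.49.

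In epithelial cells IL1RAP was higher in C2-Epi than in C1 (0.73 ± 0.22 (SE), adjusted p = 0.0211), a call lost without either C1 library (0.0893 and 0.0769) or without the second C2-Epi library (0.108). It was lower in C1-sgControl than in C1 (-0.80 ± 0.22 (SE), adjusted p = 0.0154), which was lost without either C1 library (0.0717 and 0.0793) or the second C1-sgControl library (0.172). C1-sgKMT2D-Epi was above C1-sgControl (0.63 ± 0.22 (SE), adjusted p = 0.0247), and against C1 the difference was -0.18 (adjusted p = 0.545). That call was also lost without the second C1-sgControl library (0.180) or the first C1-sgKMT2D-Epi library (0.0939). Per length of annotated exons, the accessory chain exceeded the receptor in every epithelial library and was below it in every mesenchymal one. The ratio of IL1RAP to IL1R1 was 2.97 ± 0.128 (SD, n = 2) in C1, 7.37 ± 0.620 in C2-Epi, 5.86 ± 1.51 in C1-sgControl, 1.80 ± 0.643 in C1-sgEED-Epi and 2.34 ± 0.0780 in C1-sgKMT2D-Epi. It was 0.201 ± 0.0185 in C2-Mes, 0.374 ± 0.00178 in C1-sgEED-Mes and 0.238 ± 0.00197 in C1-sgKMT2D-Mes.

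**Figure D3:**
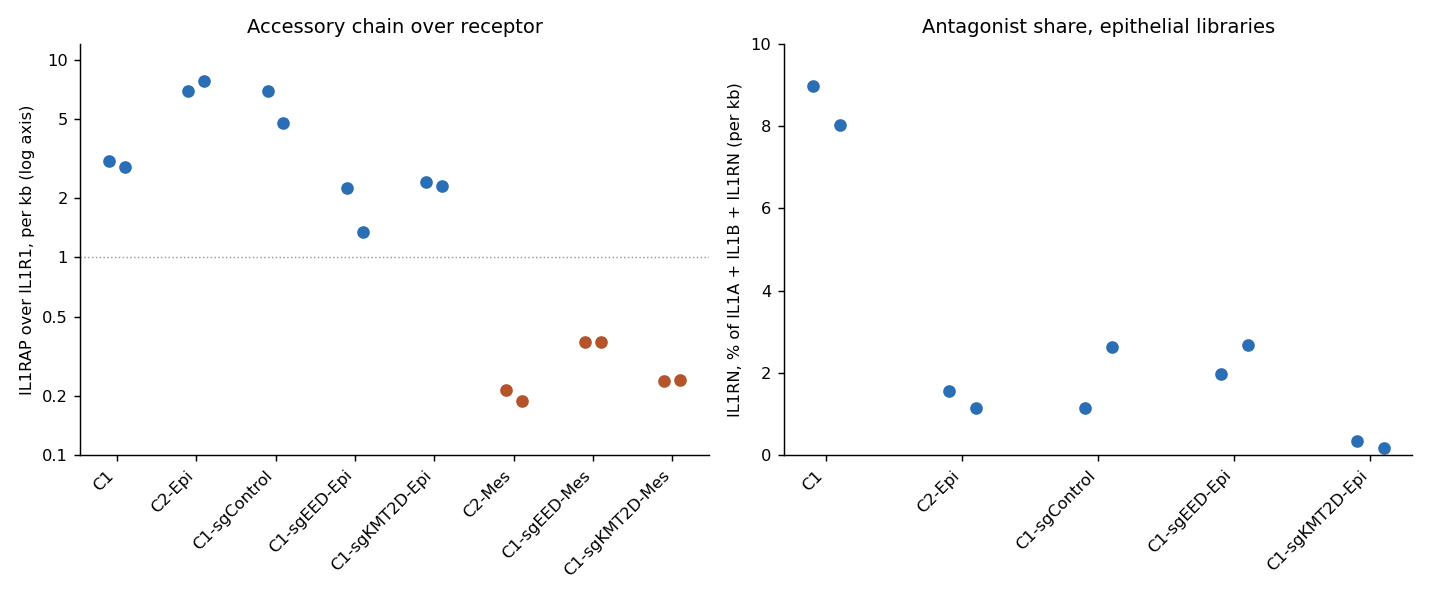
Left, the ratio of IL1RAP to IL1R1 per kb in each library on a log axis, with a dotted line at 1; right, IL1RN as a percentage of IL1A, IL1B and IL1RN per kb in epithelial libraries. Group means of the ratio run from 1.80 to 7.37 in epithelial cells and from 0.201 to 0.374 in mesenchymal cells, and the antagonist share is 8.50% in C1 and 0.260% in C1-sgKMT2D-Epi.

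Within a state, the members are read against the share of all genes that were called. Between C2-Epi and C1, 1 member was higher (12.4% of all genes) and 4 were lower (18.3%), 30.7% of all genes being called. Between C1-sgControl and C1, none was higher and 4 were lower (13.8% of all genes lower, 13.3% higher, 27.1% called). C1-sgEED-Epi was higher than C1-sgControl in IL1R1 (24.3% of all genes) and lower in IL1A (24.6%), 48.8% of all genes being called. C1-sgKMT2D-Epi was higher than C1-sgControl in IL1R1 and IL1RAP (25.3% of all genes) and lower in IL1RN (30.7%), 56.0% being called.

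Between mesenchymal groups, C1-sgEED-Mes was higher than C2-Mes in IL18, IL1R1 and IL1RAP (21.7% of all genes) and lower in IL1A and IL1B (20.2%), 41.9% of all genes being called. C1-sgKMT2D-Mes was higher than C2-Mes in IL18, IL1R1 and IL1RAP (16.2% of all genes) and lower in IL1A (17.2%), 33.4% being called. The IL1RAP differences were 1.83 (adjusted p = 1.75e-05) and 1.09 (adjusted p = 0.00173) on the log2 scale. In C1-sgEED-Mes IL1A was at -5.17 against C2-Mes (adjusted p = 0.00191; -2.95, 0.0349, without the first C2-Mes library), and IL1B at -4.85 (adjusted p = 0.00360; -1.42, 0.0698). In C1-sgKMT2D-Mes IL1A was at -3.23 (adjusted p = 0.0121; -1.01, 0.366, without that library). IL1B there was at -1.98 (adjusted p = 0.0854), and at 1.45 (adjusted p = 0.00328) without that library, so its direction rests on 1 library. The IL1A call in C1-sgKMT2D-Mes was also lost without either C1-sgKMT2D-Mes library (0.0605 and 0.0925) and with only the compared libraries (0.146). These comparisons share the C2-Mes libraries. C1-sgEED-Mes was higher than C1-sgKMT2D-Mes in IL1RAP (17.7% of all genes; 0.74 ± 0.22 (SE), adjusted p = 0.0193), and none of the other 6 members passed (13.4% of all genes lower, 31.1% called). That call was lost without the second C1-sgEED-Mes library (0.178) or either C1-sgKMT2D-Mes library (0.122 and 0.0961).

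Of the tests of differences between changes of state, C1-sgEED minus C2 called IL1RAP upward (10.2% of all genes) and IL1A and IL1B downward (10.9%), 21.1% of all genes being called. C1-sgKMT2D minus C2 called IL1RAP upward (12.3% of all genes upward, 11.8% downward, 24.1% called). C1-sgKMT2D minus C1-sgEED called IL1RAP downward (9.24% of all genes downward, 10.9% upward, 20.1% called).

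The other family members were low. IL36A and IL36B, ligands of the IL36 receptor, had no count in any library, and IL37, IL36RN and IL1F10 stayed at or under 0.423, 0.409 and 0.0424 CPM. Of the receptors not named so far, 6 passed the filter. IL1RL1, the IL33 receptor, rose in C2 from 0.253 and 0.269 to 2.92 and 0.543 CPM (edgeR adjusted p = 0.00831), which was lost without the first C2-Mes library (0.185), without either C2-Epi library (0.0701 and 0.0606) and with only the compared libraries (0.124). In C1-sgKMT2D it fell from 1.49 and 0.956 to 0 and 0.0875 CPM (adjusted p = 0.00132). IL1RL2, the IL36 receptor, fell in C1-sgKMT2D from 3.97 and 3.94 to 1.21 and 0.963 CPM (-1.86 ± 0.27 (SE), adjusted p = 5.41e-05). It also fell in C2 (-0.95 ± 0.31 (SE), adjusted p = 0.0250), a call lost with DESeq2 (0.0641), with only the compared libraries (0.167), without either C2-Epi library (0.0510 and 0.0645) and without the first C2-Mes library (0.0582), and it did not pass in C1-sgEED (0.69 ± 0.28 (SE), adjusted p = 0.0714). IL1R2, the decoy receptor, was 12.3-fold lower in C1-sgKMT2D-Mes than in C1-sgKMT2D-Epi (2 against 28 counts, counting interval of the ratio 3.10 to 106, edgeR adjusted p = 0.00281) and did not pass in C2 or C1-sgEED (adjusted p = 0.307 and 0.528). The log2 change of IL1R2 in C2 was -0.96, and -2.24 without the first C2-Mes library. IL18R1, which binds IL18, fell in C2 (-1.72 ± 0.39 (SE), adjusted p = 0.00295, lost with only the compared libraries, 0.0956) and in C1-sgKMT2D (-1.57 ± 0.41 (SE), adjusted p = 0.00599, lost without the first C1-sgKMT2D-Mes library, 0.0544). IL18RAP, the second chain that IL18 signalling needs, did not exceed 0.220 CPM in any library. IL1RAPL1, a relative of the accessory chain, did not exceed 0.132 CPM. IL1RAPL2, another relative, rose in C1-sgEED from 0.0762 and 0.175 to 2.72 and 2.60 CPM and in C1-sgKMT2D from 0.0354 and 0.0797 to 0.711 and 0.569 CPM (adjusted p = 6.23e-05 and 0.00311). In C2 it did not pass (log2 change 1.10, adjusted p = 0.117), and the change was 1.57 without the first C2-Mes library. IL18BP, the soluble inhibitor of IL18, did not pass in any of the 3 changes of state (log2 changes -0.32, -0.31 and -0.18). In C2 its change was -0.81 without the second C2-Mes library.

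Genes that process or release the cytokines moved in both directions. Of 15 listed, 12 were tested: 3 rose and 4 fell in C2, 3 rose and 4 fell in C1-sgEED, and 4 rose and 0 fell in C1-sgKMT2D, beside 39.6%, 36.5% and 50.8% of all genes called in the 3 lines. CASP1, the caspase that cleaves the IL1B and IL18 precursors, fell in C2 (-1.28 ± 0.15 (SE), adjusted p = 1.20e-05) and in C1-sgEED (-2.32 ± 0.15 (SE), adjusted p = 3.52e-08). It was at 13.4 and 13.2 CPM in C2-Epi and 6.02 and 5.02 in C2-Mes, and at 39.8 and 40.7 in C1-sgEED-Epi and 8.74 and 7.35 in C1-sgEED-Mes. In C1-sgKMT2D it was at 20.0 and 18.0 CPM and then 22.9 and 23.6, a change that did not pass (0.29 ± 0.14 (SE), adjusted p = 0.102). NLRP1, an inflammasome sensor of epithelial cells, rose in C1-sgEED by 1.10 and in C1-sgKMT2D by 2.00 on the log2 scale (adjusted p = 0.000733 and 3.35e-06), and in C2 by 1.03 (adjusted p = 0.00114, lost with only the compared libraries, 0.0806). NLRP10, a related protein, rose 6.23-fold in C1-sgEED and 19.8-fold in C1-sgKMT2D (adjusted p = 3.23e-06 and 2.91e-07) and fell 2.09-fold in C2 (adjusted p = 0.00862, lost with only the compared libraries, 0.0845). PYCARD, the inflammasome adaptor, rose in C1-sgKMT2D by 1.29 (adjusted p = 0.00176) and fell in C2 (-0.82 ± 0.28 (SE), adjusted p = 0.0302), the latter lost with only the compared libraries (0.219), without the first C2-Epi library (0.0954) and without the first C2-Mes library (0.0698). CARD8, another sensor, rose in C1-sgKMT2D by 1.56, in C1-sgEED by 0.87 and in C2 by 0.55 (adjusted p = 1.78e-06, 0.000442 and 0.00955). The CARD8 call in C2 was lost with no filter on low counts (0.136), with only the compared libraries (0.114) and without the first C2-Epi library (0.169). GSDME, a pore-forming gasdermin, fell in C2 (log2 change -1.14, adjusted p = 2.03e-05), and the calpain CAPN2 rose there by 1.45 (adjusted p = 1.23e-05). NLRP3, the sensor best known in macrophages, fell in C1-sgEED from 7.93 ± 1.04 to 2.55 ± 0.300 CPM (SD, n = 2, adjusted p = 0.000561).

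Of the genes that carry the signal from the receptor, 15 of 16 were tested. In C2 4 rose and 2 fell, in C1-sgEED 2 rose and 4 fell, and in C1-sgKMT2D 3 rose and 5 fell, beside 39.6%, 36.5% and 50.8% of all genes called. NFKB1, the precursor of an NF-kB subunit, fell in each line, with log2 changes of -1.33, -1.04 and -0.98 (edgeR adjusted p = 1.05e-05, 0.000111 and 0.000133). Its level was 83.4 and 81.6 CPM in C2-Epi and 37.1 and 28.7 in C2-Mes. TAB3, an adaptor of the TAK1 kinase, also fell in each line, with -1.39, -1.13 and -1.60 (adjusted p = 0.00342, 0.0131 and 0.00101). The TAB3 call was lost in C2 with only the compared libraries (0.0634) and in C1-sgEED without the first C1-sgEED-Epi library (0.160) or the first C1-sgEED-Mes library (0.111). IRAK1, a receptor-proximal kinase, fell in C1-sgKMT2D (-1.22, adjusted p = 0.000102) and in C1-sgEED (-0.76, adjusted p = 0.00506). TRAF6, the ubiquitin ligase downstream of it, fell in C1-sgKMT2D (-0.79, adjusted p = 0.0127). That call was lost without the first C1-sgKMT2D-Epi library (-0.82) or the second C1-sgKMT2D-Mes library (-0.83). In C2 neither IRAK1 nor TRAF6 passed (-0.34 and -0.58, adjusted p = 0.170 and 0.0662). With no filter on low counts TRAF6 passed there (-0.66, adjusted p = 0.0174). Without the first C2-Mes library TRAF6 was at -1.20, and without the second IRAK1 was at -0.64. IRAK2, a kinase that sustains the signal, fell in C1-sgEED (-1.60 ± 0.42 (SE), adjusted p = 0.00863, 0.0869 without the second C1-sgEED-Mes library). In C2 it rose (1.16 ± 0.39 (SE), adjusted p = 0.0310) from 15.7 and 15.1 to 53.8 and 15.2 CPM, and without the first C2-Mes library the change was -0.12 (adjusted p = 0.624). IKBKG, the regulatory subunit of the IkB kinase, rose in C2 by 0.83 (adjusted p = 0.0419), lost without either C2-Epi library (0.153 and 0.209), without the second C2-Mes library (0.474), with no filter (0.0705) and with only the compared libraries (0.199). IRAK4, the kinase that binds MYD88, rose in C1-sgEED by 0.78 (adjusted p = 0.00228, and 0.0560 with only the compared libraries). It was also called as rising in C1-sgKMT2D, a call lost with no filter on low counts (0.48, adjusted p = 0.0929). That IRAK4 call was also lost without either C1-sgKMT2D-Epi library (0.50 and 0.47) or either C1-sgKMT2D-Mes library (0.53 and 0.46). The IRAK2 call in C2 was also lost without either C2-Epi library (0.146 and 0.162) and with only the compared libraries (0.256).

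The target list holds 26 genes that interleukin-1 is known to induce, mostly through NF-kB, and 23 were tested. In C2 10 rose and 4 fell (median log2 change 1.46, against 0.01 over all genes), in C1-sgEED 1 rose and 11 fell (median -1.39, against 0.01), and in C1-sgKMT2D 0 rose and 8 fell (median -1.37, or -0.99 with genes at 0 set to their bound, against 0.02). Of all genes, 39.6%, 36.5% and 50.8% were called in these lines. The C2 direction depended on 1 library: without the first C2-Mes library the median log2 change of the targets was -1.17. CCL20, CSF3, CXCL1, MMP1 and SOD2 rose with and without that library. CXCL1, a neutrophil-attracting chemokine, rose in C2 by 3.45 (adjusted p = 0.000335; 1.57, adjusted p = 1.61e-05, without that library). CSF3, a growth factor for neutrophils, rose by 3.26 (adjusted p = 6.83e-06; 2.44, 5.29e-07). SOD2, a mitochondrial superoxide dismutase, rose by 3.32 (adjusted p = 0.000826; 0.95, 2.48e-05), and CXCL8, another neutrophil chemokine, by 3.24 (adjusted p = 0.00342; 0.45, 0.171). With only the compared libraries CXCL1 (0.0637), SOD2 (0.0920) and CXCL8 (0.133) did not pass.

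In the knockout lines the targets named by size of change fell. SAA1, an acute-phase protein, was at 9.90 and 13.2 CPM in C1-sgEED-Epi and 0.326 and 0.176 in C1-sgEED-Mes, and at 12.1 and 12.1 in C1-sgKMT2D-Epi and 0.167 and 0.131 in C1-sgKMT2D-Mes (adjusted p = 0.00151 and 0.000723). BIRC3, an inhibitor of cell death, was at 19.7 and 6.11 CPM and then 1.02 and 0.836 in C1-sgEED, and at 82.7 and 64.9 and then 4.27 and 3.63 in C1-sgKMT2D (adjusted p = 0.00139 and 0.000172). IL24, a cytokine of the IL10 family, was at 10.5 and 11.5 CPM in C1-sgEED-Epi and 0.181 and 0 in C1-sgEED-Mes (adjusted p = 5.90e-07), and was at least 12.8-fold lower in C1-sgKMT2D-Mes than in C1-sgKMT2D-Epi (88 against 0 counts, adjusted p = 1.93e-05). CSF3 fell in C1-sgEED from 4.09 ± 0.668 to 0.247 ± 0.163 CPM and CSF2, a growth factor for granulocytes and macrophages, in C1-sgKMT2D from 2.41 ± 0.305 to 0.107 ± 0.0268 CPM (SD, n = 2, adjusted p = 5.66e-05 and 6.21e-07). SAA1 and CSF2 also fell in C2 (-2.36 and -1.57, edgeR adjusted p = 0.0283 and 0.00134), calls lost with only the compared libraries (0.307 and 0.0555). The SAA1 call in C2 was also lost with DESeq2 (adjusted p = 0.0786) and without either C2-Epi library (log2 changes -2.35 and -2.44). IL24 was at least 2.05-fold lower in C2-Mes than in C2-Epi (15 against 0 counts, adjusted p = 0.00501). BIRC3 did not pass in C2 (-1.21, adjusted p = 0.129, and -3.04 without the first C2-Mes library). TNFAIP2 was the target that rose in C1-sgEED (1.86, adjusted p = 0.000980), and it fell in C2 (-1.75, 0.00519). Over the whole pathway list of 79 genes, 64 were tested. In C2 19 rose and 16 fell, in C1-sgEED 8 rose and 23 fell, and in C1-sgKMT2D 9 rose and 21 fell. Beside these, 39.6%, 36.5% and 50.8% of all genes were called in the 3 lines. The median log2 change of the list in C2 was -0.07, and -0.63 without the first C2-Mes library. The lists were chosen with earlier results of these data known and are no independent evidence of a direction.

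The targets also set the 2 C2-Mes libraries apart. Summed over the 26 targets the level was 2899 CPM in replicate 1 and 434 CPM in replicate 2, a ratio of 6.68, against ratios of 1.01 to 1.10 between the replicates of the other 7 groups. Of the 19 targets with at least 1 CPM in either C2-Mes library, 19 were higher in replicate 1, 18 of them at least 2-fold, and in no other group did more than 1 target differ 2-fold. SOD2 was at 2002 and 233 CPM, CXCL2 at 71.1 and 2.14, NFKBIZ at 156 and 31.1, TNFAIP3 at 64.2 and 9.39 and CXCL8 at 49.8 and 4.15, and without SOD2 the sums were 896 and 201 CPM. IL1A and IL1B moved with them, at 8.59 and 0.958 and at 8.53 and 0.383 CPM, while IL18 was at 4.38 and 9.27, IL1R1 at 73.0 and 67.0 and IL1RAP at 25.5 and 20.6 CPM. The leukocyte markers summed to 1.64 to 1.92 CPM in these 2 libraries and the endothelial markers to 19.9 to 32.2 CPM, and their part in the difference was not tested. The header name with "re.prep" marks replicate 1 only, and the headers of the 2 C2-Mes libraries also differ in the rest of their names. No label says whether these 2 libraries came from the same culture. Preparation, culture and replicate therefore cannot be told apart.

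**Figure D4:**
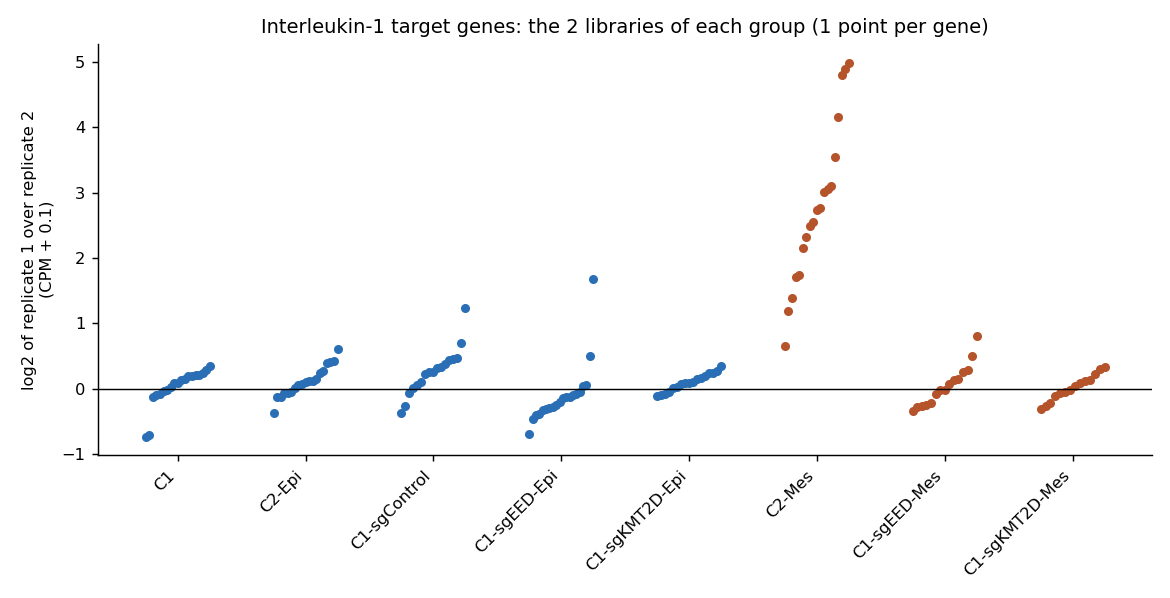
Log2 ratio of replicate 1 over replicate 2 (CPM + 0.1) for each interleukin-1 target with at least 1 CPM in either library, by group, 1 point per gene in ascending order. The 19 points of C2-Mes all lie above 0, and the points of the other 7 groups lie on both sides of it.

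Over the 8 group means of log2 CPM, IL1A and IL1R1 ran in opposite directions (Pearson r = -0.948, n = 8 groups), and IL1A and IL1B together (r = 0.936). The groups share 1 cell line and 2 states, so these values describe the pattern and carry no p. The genes most like IL1A were RAB17, TP63 and MROH6 (r = 0.990, 0.985 and 0.985), those most like IL1B were SMKR1, C17orf107 and CLCA2 (0.987, 0.979 and 0.957), and those most like IL18 were MRPL16, SCNN1A and ERAL1 (0.984, 0.984 and 0.976). For IL1RN they were ACOT11, CELSR2 and CRYBG2 (0.986, 0.986 and 0.981), and for IL33 SLC1A6, KRT13 and KRT19 (0.986, 0.966 and 0.950). For IL1R1 they were ROR1 and DAB2 (0.987 and 0.978), and IL1RAP was most like KLHL31, NMNAT3 and HMGB1 (0.953, 0.936 and 0.930).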

How the data were processed

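RNA of 16 HMLER libraries in 8 groups was analysed from 1 table of raw counts per library. The deposited counts are whole numbers per Ensembl gene; the submitters' processing notes name STAR 2.7.1a, featureCounts and GRCh38. Annotation release, strand setting and the treatment of multimapping reads are not given in the sources used here, so reads of antisense or near-identical genes could be shared. Groups follow the sample titles. Symbols, exons and lengths are those of GENCODE 29, where 56868 of 60448 genes (94.1%) were found; all others together took no more than 0.0463% of the counts in any library.

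Counts were fitted in edgeR 4.0.16 (R 4.3.3, limma 3.58.1; filterByExpr, TMM, robust quasi-likelihood, 1 mean per group, 8 residual degrees of freedom), with p-values adjusted over all genes within each of 10 pairs and 3 differences of changes. Alternatives were DESeq2 1.42.0, other scaling, no filter, only the compared libraries, a replicate block, C1 as control and each library left out. CPM uses TMM-scaled library sizes, and CPM per kb divides by the length of all annotated exons of a gene together. That length can exceed that of the transcript expressed, so rankings, shares and ratios between genes are approximate. Folds against 0 counts use a floor of 3 counts per library; counting intervals (95%) are exact and cover counting error only. Named are all 8 members, every family ligand, receptor and binding protein, and per pathway list and line the 4 called genes with the largest change at 1 CPM or more; other named genes were chosen after their values were seen. Likeness takes the 3 protein-coding genes with the highest r, of which 1 for IL1R1 is not reported here. Members and lists were chosen with earlier results of these data known. The fits were tested on simulated data for the C1-sgEED change of state, with 100 genes changed at each size. There edgeR recovered 35% of 2-fold and 76% of 4-fold changes. In the data 36.5% of genes were called in that comparison, far more than the simulation changed. The rates therefore need not hold for the data, and a change that did not pass may still be present. Figures used Python 3.11.15 with matplotlib 3.10.9.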

Additional observations from a re-analysis of the deposited data

Results flagged for a closer look

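The change from epithelial to mesenchymal cells differed between lines for 3 members by the edgeR test of the difference itself. For IL1A the change in C1-sgEED minus that in C2 was -4.31 on the log2 scale (adjusted p = 0.0321; -2.03, adjusted p = 0.193, without the first C2-Mes library). For IL1B the same difference was -5.88 (adjusted p = 0.00611; -2.39, 0.00294, without that library). For IL1RAP it was 2.96 (adjusted p = 1.18e-05), and C1-sgKMT2D minus C2 was 2.00 (adjusted p = 0.000360); without the first C2-Mes library these were 3.18 (1.07e-05) and 2.19 (0.000246). The IL1RAP change in C1-sgKMT2D minus that in C1-sgEED was -0.96 (adjusted p = 0.0401), from 2 changes of which neither passed on its own. Each difference sets 4 libraries against 4, and those with C2 share the C2 libraries. The C1-sgEED-Mes libraries held 6 and 0 counts of IL1A and 3 and 4 of IL1B, so the sizes of those differences rest on few reads.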

How the results depend on the processing

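Of the members' values under an alternative, 801 kept direction and side of the threshold, 49 lost the call, 47 gained it and 4 reversed; of the other named pathway genes, 1137 kept both, 73 lost, 36 gained and 2 reversed. With C1 as the control, IL33 in C1-sgEED-Epi (-2.07) and IL1RAP in C1-sgKMT2D-Epi (-0.18) reversed. With 1 library left out, IL1B ran from -3.08 to 1.45 in C1-sgKMT2D-Mes against C2-Mes and from -3.06 to 1.46 in the C1-sgKMT2D minus C2 difference, IRAK2 from -0.12 to 1.76 in C2, and IL1RL1 from -0.94 to 1.54 in C1-sgEED-Mes against C2-Mes; the reversed ends are those without the first C2-Mes library. The causes were not tested.

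With no filter on low counts, members called were 7 for C1-sgControl against C1 (4 in the fit reported above), 4 and 5 for C1-sgEED-Epi and C1-sgKMT2D-Epi against C1-sgControl (2 and 3), 3 for C1-sgEED-Mes against C1-sgKMT2D-Mes (1), 3 for C1-sgKMT2D minus C2 (1) and 2 for C1-sgKMT2D minus C1-sgEED (1). With only the compared libraries, which leave fewer samples, they were 7, 5, 5, 2 and 2 for those comparisons apart from C1-sgKMT2D minus C2, 2 for C1-sgKMT2D-Mes against C2-Mes (4), and 9 pathway genes in C2 (35). DESeq2 gave 2 for C1-sgEED-Mes against C1-sgKMT2D-Mes and 2 for C1-sgKMT2D minus C1-sgEED, beside 5823 and 4176 of all 18285 genes. Of 36796 genes with no filter, 5319 were called for C1-sgControl against C1 and 9191 and 10426 for C1-sgEED-Epi and C1-sgKMT2D-Epi against C1-sgControl. In that setting 6148 were called for C1-sgEED-Mes against C1-sgKMT2D-Mes, 4829 for C1-sgKMT2D minus C2 and 4044 for C1-sgKMT2D minus C1-sgEED. Leaving out each library gave 5 to 6 members in C2 and in C1-sgEED, 3 to 5 in C1-sgKMT2D, 3 to 4 for C2-Epi and for C1-sgControl against C1, 1 to 2 and 2 to 3 for the guide comparisons, 4 to 6 and 3 to 5 against C2-Mes, 0 to 1 for C1-sgEED-Mes against C1-sgKMT2D-Mes, and 2 to 3, 1 to 3 and 0 to 1 for the differences of changes; pathway genes were 25 to 44, 27 to 30 and 22 to 26 in the 3 lines.

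All genes called with only the compared libraries were 3361 in C2 (7246), 9967 for C2-Epi against C1 (5620), 3567 and 2112 for C1-sgEED-Mes and C1-sgKMT2D-Mes against C2-Mes (7664 and 6103) and 2130 for C1-sgEED minus C2 (3866). In the same setting C1-sgControl against C1 had 7281 of 15702 tested genes called. C1-sgEED-Epi and C1-sgKMT2D-Epi against C1-sgControl had 8764 of 16074 and 11112 of 15857. C1-sgEED-Mes against C1-sgKMT2D-Mes had 6118 of 16149, and C1-sgKMT2D minus C1-sgEED had 4565 of 17270. With C1 as control C1-sgEED-Epi had 4601 (8930). Leaving out 1 library gave as few as 2226 for C1-sgControl against C1 (4951), 2629 for C2-Epi against C1, 3556 for C1-sgEED-Mes against C1-sgKMT2D-Mes (5686), 4042 for C1-sgKMT2D-Mes against C2-Mes and 2293 for C1-sgKMT2D minus C1-sgEED (3674), and up to 6749 for C1-sgKMT2D minus C2 (4410). The replicate numbers did not pair the samples (correlations of deviations from -0.371 to 0.344 between groups). The replicate block added the calls of IL18 in C1-sgControl against C1 (0.66, adjusted p = 0.0444) and of BIRC3 in C2 (-1.48, 0.0365). It lost that of IL1R2 in C1-sgEED-Epi against C1-sgControl (2.11, 0.0595). Members near 0 counts (IL33, IL36G and mesenchymal IL1RN) are limited by depth.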

Other observations

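The receptors for IL18, IL33 and IL36 also differed between groups of the same state, by the same edgeR fit. IL18R1, the ligand-binding chain for IL18, was at 5.60 and 6.07 CPM in C1-sgEED-Epi and 6.53 and 8.98 in C1-sgEED-Mes, above every library of the other 6 groups, which did not exceed 1.77 CPM. The difference was 3.05 ± 0.34 (SE), adjusted p = 1.11e-05 against C1-sgControl and 3.95 ± 0.37 (SE), adjusted p = 1.10e-06 against C2-Mes on the log2 scale, and 4.23 ± 0.37 (SE), adjusted p = 1.42e-06 against C1-sgKMT2D-Mes. Its partner chain IL18RAP did not exceed 0.220 CPM. IL18BP, which neutralizes IL18, was higher in C2-Epi (12.2 and 12.2 CPM) than in C1 (4.54 and 4.38 CPM; 1.45 ± 0.23 (SE), adjusted p = 0.000446).

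IL1RL2, the IL36 receptor, was at 3.97 and 3.94 CPM in C1-sgKMT2D-Epi and 0.755 and 0.643 CPM in C1-sgControl (2.49 ± 0.28 (SE), adjusted p = 7.50e-06), while its ligands IL36A and IL36B had no count and IL36G stayed at or under 0.246 CPM. IL1RL1, the IL33 receptor, was at 1.49 and 0.956 CPM in C1-sgKMT2D-Epi, where IL33 itself had no count, against 0.0839 and 0.0428 CPM in C1-sgControl (adjusted p = 0.00167). SIGIRR, a receptor of the family that dampens signalling, was at 3.73 and 3.19 CPM in C1 and 0.795 and 0.769 in C2-Epi (-2.14 ± 0.32 (SE), adjusted p = 0.000284). It was at 5.62 and 4.45 CPM in C1-sgControl, 2.13 and 2.32 in C1-sgEED-Epi (-1.18 ± 0.28 (SE), adjusted p = 0.00378; adjusted p = 0.124 with C1 as the control) and 1.52 and 2.47 in C1-sgKMT2D-Epi (-1.34 ± 0.29 (SE), adjusted p = 0.00136). IL1R2, the decoy receptor that binds interleukin-1 without signalling, stayed at or under 0.532 CPM in all libraries.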
